A study of Caenorhabditis elegans with 11 samples.

Results

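mir-251 and mir-252 are a pair of Caenorhabditis elegans microRNA (miRNA) genes that are grouped as 1 seed family. They were taken by their names, cel-mir-251 and cel-mir-252, from the deposited count table and make up 2 of its 250 hairpins, a hairpin being the folded precursor from which mature miRNAs are cut. Small RNA had been sequenced from total RNA of whole hermaphrodites of N2, the standard laboratory strain, at 4 ages: 1 day (3 libraries), 5 days (3 libraries), 10 days (3 libraries) and 20 days (2 libraries). The labels name no mutation, transgene or treatment in any group, and the sources used here do not give the stage at which day counting began. They also do not tell whether same-age libraries were grown as separate cultures, and the p-values then cover the spread between libraries alone, which may be technical.

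A mature miRNA guides an Argonaute protein to messenger RNAs that carry a match to its seed, the short stretch near its 5′ end, and lowers their stability and translation. Members of 1 seed family can therefore recognise overlapping sets of messages, while each is transcribed from its own gene and can have its own level. A miR-252 is also found in the fruit fly Drosophila melanogaster.

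The genes of the pair lie on different chromosomes of the WBcel235 assembly. The mir-251 hairpin spans 97 bases on chromosome X (11004728 to 11004824, plus strand) and overlaps no other annotated gene. Its nearest neighbour is del-5, a gene of the degenerin ion channel family, 160 bases away on the other strand. The annotation lists 1 mature arm for it, of 22 bases (11004746 to 11004767). The mir-252 hairpin spans 98 bases on chromosome II (11446863 to 11446960, minus strand), with a mature arm of 23 bases (11446918 to 11446940) near its 5′ end and one of 19 bases (11446883 to 11446901) near its 3′ end. It lies in an intron of the protein-coding gene W02B12.13 and overlaps an exon of the non-coding RNA gene W02B12.17, both on the plus strand. The sources used here do not give whether the authors' counting used strand. No other annotated miRNA gene lay within 10 kb of either hairpin, so neither belongs to a local miRNA cluster at that distance.

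Library totals ran from 955506 to 1800586 counts. Levels are in CPM, the count scaled to a common library size, after TMM scaling, a correction for differences in composition between libraries. They are relative abundances: each is set against the rest of its own library. In bulk samples, fewer cells of a type and less of an RNA per cell cannot be told apart. Markers of muscle (mir-1), intestine (mir-60), glia (mir-228) and neurons (mir-124, lsy-6 and mir-791) all had counts in each of the 11 libraries. So did the 8 hairpins of the mir-35 family, which is made in oocytes and embryos.

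Both members were minor components of the libraries. mir-252 averaged 90.7 CPM over the 11 libraries and ranked 90th of 145 tested hairpins, with 1387 reads in all. mir-251 averaged 6.84 CPM and ranked 133rd, with 102 reads in all. In scaled reads, the mean level of mir-252 was 13.3 times that of mir-251. Whether both sequences entered the libraries equally well was not tested. Counts are given by hairpin name and do not separate the annotated mature arms of mir-252, while the annotation lists just 1 for mir-251. The part of the arms in the 13.3-fold difference was not tested. mir-252 had between 99 and 209 reads per library and mir-251 between 1 and 21, so the values of mir-251 carry far more counting error.

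Both members were higher in old worms than in young ones, and for both the mean level stood in the order of age. For mir-252, the libraries held 69.5, 58.2 and 68.3 CPM at 1 day. The 5-day libraries held 65.1, 91.1 and 61.8 CPM, the 10-day libraries 148, 86.9 and 93.6 CPM, and the 20-day libraries 134 and 122 CPM. Each 20-day library was above each 1-day and 5-day library, and the highest single value belonged to replicate 1 of the 10-day group. The mean was 65.3 ± 6.20 CPM for 1 day, 72.7 ± 16.0 CPM for 5 days and 110 ± 33.6 CPM for 10 days (SD, n = 3 each). For 20 days it was 128 ± 8.50 CPM (SD, n = 2). Relative to the mean, the spread was 9.50% at 1 day and 6.66% at 20 days, near the counting errors of 9.47% and 8.18%. At 5 and 10 days it was 22.1% and 30.7%, above the counting errors of 9.47% and 8.73%.

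For mir-251, the libraries held 3.79, 0.588 and 3.73 CPM at 1 day. The 5-day libraries held 5.48, 8.64 and 3.31 CPM, the 10-day libraries 8.85, 5.84 and 9.66 CPM, and the 20-day libraries 13.4 and 11.9 CPM. The 20-day libraries were above all others, and the 1-day libraries were below all those of 10 and 20 days. These levels came from 6, 1 and 7 reads at 1 day. At 5 days there were 9, 11 and 6 reads, at 10 days 8, 9 and 13, and at 20 days 21 and 11. Replicate 2 of the 1-day group, with its single read, lay under the level that 3 counts would give there (1.76 CPM). The means were 2.70 ± 1.83 CPM at 1 day, 5.81 ± 2.68 CPM at 5 days, 8.11 ± 2.01 CPM at 10 days (SD, n = 3 each) and 12.7 ± 1.05 CPM at 20 days (SD, n = 2). Only 5 of the 11 libraries reached the level of 6.46 CPM that the filter on low counts asks for in at least 2 libraries. None of these 5 was a 1-day library, 1 was of 5 days, 2 were of 10 days and 2 of 20 days. mir-251 thus entered the test through the ages at which it was high, and its calls are given with that limit. All 11 libraries reached that level for mir-252.

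**Figure D1:**
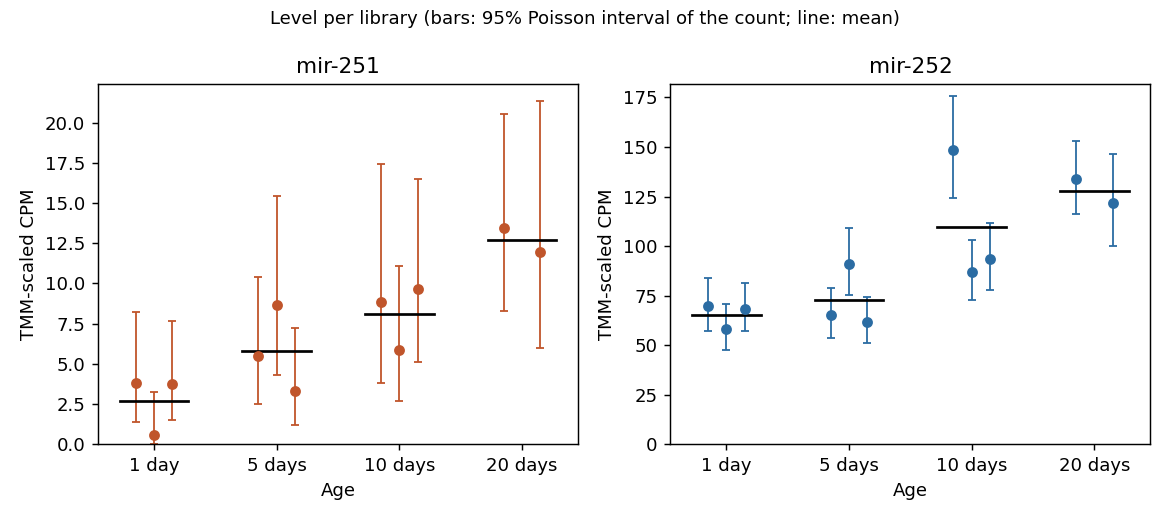
TMM-scaled CPM (y axis, from 0) of mir-251 (left) and mir-252 (right) in each library by age (x axis). Points are libraries, bars the 95% Poisson interval of the count, which covers counting error only, and black lines the mean of each age. The 20-day libraries of mir-251 (13.4 and 11.9 CPM) lie above all others, and for mir-252 replicate 1 of the 10-day group (148 CPM) stands above the other two of its age.

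The oldest worms were first set against the youngest. mir-252 rose, with 128 ± 8.50 CPM at 20 days (n = 2) against 65.3 ± 6.20 CPM at 1 day (n = 3), 1.96-fold by edgeR's quasi-likelihood fit (log2 change 0.97 ± 0.21 (SE), adjusted p = 0.000485). mir-251 rose 4.62-fold, with 12.7 ± 1.05 CPM at 20 days (n = 2) against 2.70 ± 1.83 CPM at 1 day (n = 3; log2 change 2.21 ± 0.51 (SE), adjusted p = 0.000767). From the summed counts, 32 reads of mir-251 at 20 days against 14 at 1 day, the ratio of levels was 4.74, with a 95% counting interval of 2.46 to 9.62. The ages did not overlap for either member. Of the 145 tested hairpins, 33.1% passed as higher in this comparison, and 38.6% were higher with no overlap between the ages. A call as higher was thus common, and it sets neither member apart from other miRNAs. Over all tested hairpins the log2 change had a median of -0.027. The rise of mir-252 passed under each of the 22 alternatives tried (other scalings, filters, tools and fits, and 1 library left out at a time), with log2 changes of 0.77 to 1.08. The rise of mir-251 passed under 20 of 21, and with the L number as a fixed term it was 1.85 ± 0.87 (SE; adjusted p = 0.0509). The L number is the one after the letter L that ends each sample description, and the labels do not say what it stands for. A fit with this fixed term has nearly as many terms as libraries. A library that shares its L number with no other adds nothing to its comparisons of ages. A call kept or lost in this fit therefore carries little weight. With no filter on low counts, which put 222 hairpins to the test, the log2 change of mir-251 was 2.25 (adjusted p = 2.12e-05). Among the libraries with L number 1, 1 of each of these ages, mir-252 had 122 CPM at 20 days against 69.5 CPM at 1 day, and mir-251 11.9 CPM at 20 days against 3.79 CPM at 1 day.

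At 20 days against 5 days both members were again higher, and the ages did not overlap. mir-252 rose 1.78-fold, with 128 ± 8.50 CPM at 20 days (n = 2) against 72.7 ± 16.0 CPM at 5 days (n = 3; log2 change 0.83 ± 0.21 (SE), edgeR adjusted p = 0.00227). mir-251 had a log2 change of 1.20 ± 0.45 (SE; adjusted p = 0.0274), with 12.7 ± 1.05 CPM at 20 days (n = 2) against 5.81 ± 2.68 CPM at 5 days (n = 3). In this comparison 34.5% of tested hairpins passed as higher and 37.9% were higher without overlap. The call of mir-252 held under all alternatives tried. That of mir-251 did not pass with DESeq2 (adjusted p = 0.0628) or with the L number as a fixed term (adjusted p = 0.191). It also ended when replicate 3 of the 5-day group was left out, or at 20 days replicate 1 (adjusted p = 0.116 each).

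At 10 days against 1 day the members passed as higher, and for both the ages did not overlap. mir-252 had 110 ± 33.6 CPM at 10 days against 65.3 ± 6.20 CPM at 1 day (n = 3 each), with a log2 change of 0.72 ± 0.19 (SE; edgeR adjusted p = 0.00326). mir-251 had 8.11 ± 2.01 CPM at 10 days against 2.70 ± 1.83 CPM at 1 day (n = 3 each), with a log2 change of 1.52 ± 0.51 (SE; adjusted p = 0.0143). For mir-251, no 1-day library and 2 of the 10-day libraries reached the level that the filter asks for. With the libraries of these ages alone, mir-251 did not enter the test. Here 37.2% of tested hairpins passed as higher, and 38.6% were higher without overlap. The log2 change over all tested hairpins had a median of 0.15. Both calls rested on single libraries. Without replicate 1 of the 10-day group, the log2 change of mir-252 was 0.32 (adjusted p = 0.0701) and that of mir-251 1.33 (adjusted p = 0.0505). Without replicate 2 of the 1-day group, which held 1 read of mir-251, they were 0.50 (adjusted p = 0.0502) and 0.93 (adjusted p = 0.0802), and without replicate 3 of the 10-day group mir-251 had 1.34 (adjusted p = 0.0642). With total counts as the only scaling, mir-252 had 0.43 (adjusted p = 0.0568), and with the L number in the fit mir-251 had 1.49 (adjusted p = 0.186).

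Between neighbouring ages, 1 of 6 tests passed, that of mir-252 at 10 against 5 days. At 5 days against 1 day, the log2 change of mir-252 was 0.14 ± 0.19 (SE; edgeR adjusted p = 0.579) and that of mir-251 was 1.00 ± 0.53 (SE; adjusted p = 0.129), and the ages overlapped for both. At this step 21.4% of tested hairpins passed as higher. The direction of mir-252 at this step turned with upper-quartile scaling (-0.015), with the L number in the fit (-0.30) and when replicate 2 of the 5-day group was left out (-0.041). For the L number 3, shared by a library of each of these ages, mir-252 had 65.1 CPM at 5 days against 68.3 CPM at 1 day, and mir-251 had 5.48 CPM at 5 days against 3.73 CPM at 1 day. At 10 days against 5 days, mir-252 passed with a log2 change of 0.58 ± 0.19 (SE; adjusted p = 0.0241), although the lowest 10-day library (86.9 CPM) lay below the highest 5-day library (91.1 CPM). In this comparison 29% of tested hairpins passed as higher, and the log2 change over all tested hairpins had a median of 0.19. That call was lost under 7 of 11 other settings, DESeq2 among them (0.38, adjusted p = 0.129), and in 6 of 11 fits with 1 library left out. Without replicate 1 of the 10-day group the log2 change was 0.17 (adjusted p = 0.400). For the L number 5, mir-252 had 148 CPM at 10 days, in that same replicate 1, against 61.8 CPM at 5 days. Before TMM scaling it had 130 CPM in this 10-day library (134 of 1032059 counts). In the 5-day library it had 67.5 CPM before scaling (112 of 1660390 counts). The values of mir-251 for the L number 5 were 8.85 CPM at 10 days against 3.31 CPM at 5 days. mir-251 had a log2 change of 0.51 ± 0.45 (SE) at this step and did not pass (adjusted p = 0.377).

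From 10 to 20 days neither member passed with all libraries in the fit. mir-252 had a log2 change of 0.25 ± 0.21 (SE; edgeR adjusted p = 0.334) and mir-251 one of 0.69 ± 0.44 (SE; adjusted p = 0.211), while 20% of tested hairpins passed as higher. The 20-day libraries of mir-251 (13.4 and 11.9 CPM) were nonetheless above those of 10 days (8.85, 5.84 and 9.66 CPM), as was the case for 27.6% of tested hairpins. Without replicate 1 of the 10-day group, mir-252 was higher at 20 days by a log2 change of 0.73 (adjusted p = 0.00171). Without replicate 2 of the 1-day group, both members passed from 10 to 20 days, mir-252 at 0.50 (adjusted p = 0.0482) and mir-251 at 0.92 (adjusted p = 0.0406). With no filter on low counts, mir-252 passed there at 0.44 (adjusted p = 0.0450). In each of these fits mir-252 did not pass at 10 against 5 days (adjusted p = 0.400, 0.106 and 0.0645). The step at which mir-252 was called higher, before or after 10 days, thus turned on single libraries and on the filter. For the L number 7, mir-252 had 134 CPM at 20 days against 93.6 CPM at 10 days, and mir-251 13.4 CPM at 20 days against 9.66 CPM at 10 days.

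**Figure D2:**
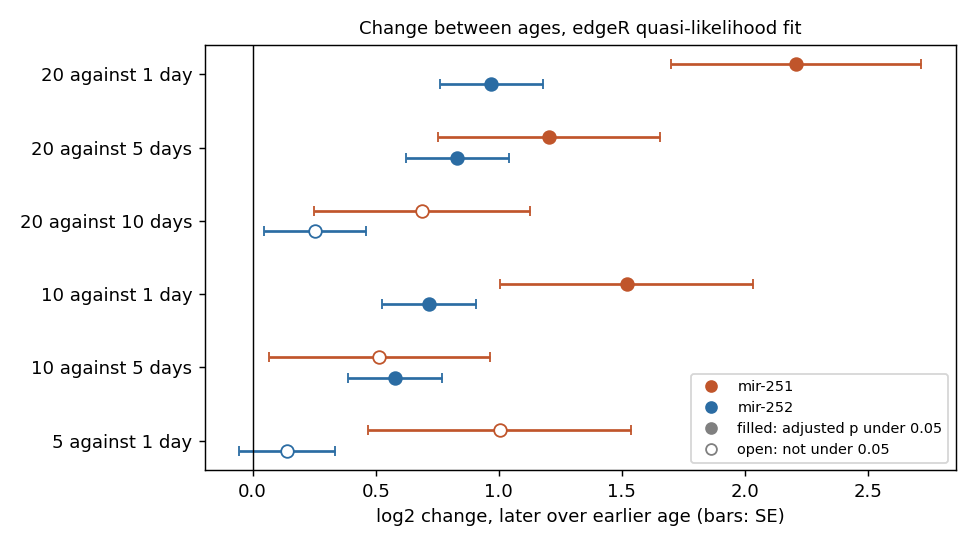
Log2 change of mir-251 and mir-252 (x axis, later over earlier age) in the 6 comparisons of 2 ages (y axis), from edgeR's quasi-likelihood fit to all 11 libraries. Bars are SE, and filled points have a Benjamini-Hochberg adjusted p under 0.05 over 145 hairpins. Both members are filled at 20 against 1, 20 against 5 and 10 against 1 day, and the bars of mir-251 are the wider ones throughout (SE 0.44 to 0.53, against 0.19 to 0.21 for mir-252).

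When the 4 ages were tested at once, both members differed by edgeR's quasi-likelihood F-test (adjusted p = 0.000710 for mir-252 and 0.00441 for mir-251), as did 80% of tested hairpins. With the L number in the fit mir-251 no longer passed (adjusted p = 0.220). As a slope on log2 age, mir-252 gained 0.22 ± 0.06 (SE; adjusted p = 0.00449) and mir-251 0.50 ± 0.12 (SE; adjusted p = 0.00229) on the log2 scale for each doubling of age. A rising slope passed for 26.2% of hairpins. Without the 20-day group both slopes still passed.

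Whether the members moved to the same extent was asked with the ratio of their counts inside each library, which no library scaling can alter. The sources used here do not give how a read matching both members would have been counted. mir-252 had 18.3, 99.0 and 18.3 reads for each read of mir-251 at 1 day. There were 11.9, 10.5 and 18.7 in the 5-day libraries, 16.8, 14.9 and 9.69 in the 10-day libraries, and 9.95 and 10.2 in the 20-day libraries. The 99.0 belongs to the 1-day library with a single read of mir-251, and the other ratios span 9.69 to 18.7. Mean log2 ratios were 5.01 ± 1.41 at 1 day, 3.73 ± 0.43 at 5 days, 3.75 ± 0.42 at 10 days (SD, n = 3 each) and 3.33 ± 0.02 at 20 days (SD, n = 2). They did not differ among the ages by an exact two-sided permutation test of the F statistic over 92400 regroupings of the libraries (p = 0.119). At 20 days against 1 day the log2 ratio differed by -1.67 (exact permutation p = 0.3, adjusted over 6 comparisons 0.45), a design in which p cannot go below 0.1. Without replicate 2 of the 1-day group that difference was -0.86, and within the L number 1 it was -0.85. At 10 days against 1 day it differed by -1.26, with p = 0.1, the smallest that this exact permutation test can give (adjusted over 6 comparisons 0.45). At 5 days against 1 day it differed by -1.28 (exact permutation p = 0.3). Each 1-day library had a higher ratio than each 10-day and 20-day library.

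Summed reads were used to gauge the counting error in how far the pair parted. The odds of a mir-251 read against a mir-252 read were 2.40 times as high at 20 days (32 and 321 reads) as at 1 day (14 and 337 reads), with an exact 95% interval of 1.22 to 4.96. At 5 against 1 day these odds differed 1.87-fold (interval 0.921 to 3.94), and at 10 against 1 day 1.83-fold (0.924 to 3.80). At 10 against 5 days they differed 0.981-fold (interval 0.549 to 1.76), and at 20 against 10 days 1.31-fold (0.752 to 2.28). The intervals cover counting error only and leave out the spread between libraries, over which the permutation test was run. No permutation test of the ratio between 2 ages could pass in this design, so neither a larger rise of mir-251 nor an equal rise of both was shown.

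**Figure D3:**
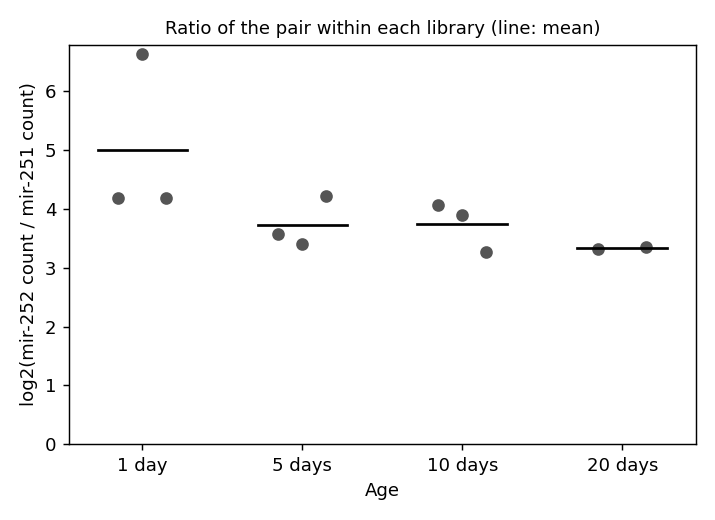
Log2 of the mir-252 count over the mir-251 count (y axis, from 0) in each library by age (x axis), with a line at the mean of each age. The single high point at 1 day (6.63) is the library with 1 read of mir-251, and the 20-day libraries lie together at 3.32 and 3.35.

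Other seed pairs of the worm show how far paired hairpins can part between the same ages. From 1 to 20 days the log2 changes of mir-251 and mir-252 were both positive and both passed. mir-46 and mir-47 both fell, with log2 changes of -0.35 and -0.48. lin-4, the timing miRNA of larval development, and its relative mir-237 both fell too (-0.82 and -4.77). mir-87 (-0.027, adjusted p = 0.917) and mir-233 (0.67, adjusted p = 0.00384) had changes of opposite sign, as had mir-49 (-0.54, adjusted p = 0.0330) and mir-83, a relative of vertebrate miR-29 (0.32, adjusted p = 0.254). Neither mir-75 (0.074) nor mir-79 (-0.25) passed. Between 20 days and 1 day the log2 ratio of the second to the first named, with 0.5 added to each count, changed by -1.46 for mir-251 and mir-252. That value leans on the 1-day library with a single read of mir-251. With nothing added to the counts, the change was -1.67 with that library and -0.86 without it. In the other pairs the log2 ratio, with 0.5 added, changed by between -3.96 (lin-4 and mir-237) and 0.87 (mir-49 and mir-83). The sign depends on which hairpin of a pair is named second.

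The pattern of mir-252 over the 11 libraries was most like those of mir-231 (Pearson's r of log2 CPM 0.94), mir-45 (0.91) and mir-44 (0.91). This was among the 96 others that averaged 50 CPM or more, whose r ranged from -0.83 to 0.94 with a median of 0.30. mir-44 and mir-45 are near-identical miRNAs whose separate counts are uncertain. mir-231 lay between 35.4 and 38.4 CPM in the 1-day libraries, 37.0 and 45.6 CPM in those of 5 days, 70.0 and 103 CPM in those of 10 days, and 94.4 and 104 CPM in those of 20 days. The pattern of mir-251 was most like those of mir-72 (0.87), mir-238 (0.87) and mir-34, a miRNA of the stress and DNA damage responses (0.86), among 97 hairpins with r from -0.81 to 0.87 and a median of 0.31. The members themselves had an r of 0.84 with each other. The points are 11 libraries that share their scaling factors and depth, so these values are descriptions.

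Embryonic miRNAs changed over the same ages. The summed level of the 8 mir-35 family hairpins was 155415 to 205517 CPM in the 1-day, 184346 to 210332 CPM in the 5-day, 265636 to 294854 CPM in the 10-day and 288292 to 318372 CPM in the 20-day libraries, and none of the 8 was at 0 in any library. The glial mir-228 stood at 122154 to 157292 CPM at 20 days against 72365.6 to 90835.7 CPM at 1 day, the intestinal mir-60 at 614 to 815 CPM at 20 days against 1506 to 1880 CPM at 1 day, the muscle mir-1 at 140 to 175 CPM at 20 days against 453 to 580 CPM at 1 day, and the summed neuronal markers at 37.1 to 40.2 CPM at 20 days against 54.4 to 62.6 CPM at 1 day. mir-60 was highest at 5 days (2505 to 3123 CPM). The part of these changes in the results for mir-251 and mir-252 was not tested. When the mir-35 family was left out of the counts before scaling, the log2 changes at 20 against 1 day were 1.02 for mir-252 (adjusted p = 0.000135) and 2.27 for mir-251 (adjusted p = 0.000622).

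**Figure D4:**
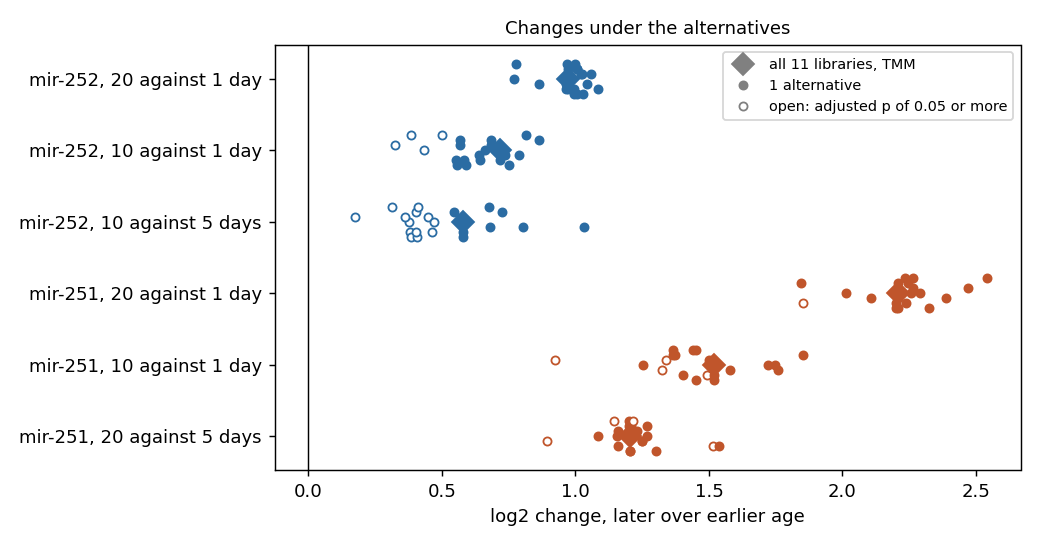
Log2 change (x axis, later over earlier age) of 6 results that passed with all 11 libraries (y axis), as diamonds, with each alternative setting or left-out library as a small point. Open points have an adjusted p of 0.05 or more. For mir-252 all points at 20 against 1 day are filled (0.77 to 1.08), while at 10 against 5 days 13 of 22 alternatives are open.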

How the data were processed

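Total RNA of whole worms was turned into TruSeq small RNA libraries, per the labels. The deposited table holds unnormalized read counts by hairpin name, with no separate counts for the arms of a hairpin. The submitters' processing notes name the tools BWA 0.7.12-r1039, SAMtools 1.3.1-9, Trimmomatic 0.36 and CASAVA 1.8.4. The sources used here do not give the reference, its build or how reads with several matches were counted.

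Age groups came from the labels, and replicate numbers only name libraries. Of 250 hairpins, 145 passed edgeR's filterByExpr (minimum count 10, minimum total 15). edgeR 4.0.16 in R 4.3.3 fitted all 11 libraries with age as a factor, TMM scaling and quasi-likelihood F-tests. P-values were adjusted by Benjamini-Hochberg over 145 hairpins (threshold 0.05). The prior count was 0.125 for log2 changes and 2 for log2 CPM. The SE is the unshrunk log2 change over the square root of F. Count ratios were tested by exact permutation over libraries. The steps were tested on simulated counts. Places are from the Ensembl annotation of WBcel235.

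Alternatives were other scalings (RLE, upper quartile, total counts, TMM without the mir-35 family), other filters, DESeq2 1.42.0, robust fitting, terms for the L number (fixed, or a random block in limma 3.58.1 voom), fits to just the ages compared, and leaving out libraries 1 by 1. The L number is the one after the letter L in the descriptions; the labels do not explain it. Named hairpins were both members, the 3 most alike per member, 5 other seed pairs, cell type markers and annotated neighbours within 10 kb. Seeds of the pairs were taken from background knowledge, not checked on sequences. The members and lists were chosen with earlier results of these data known. Intervals are computed from read counts and cover counting error only. Reads carry no molecular identifiers, so reads copied from the same molecule cannot be told apart, and the counting error may be larger than these intervals show.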

Additional observations from a re-analysis of the deposited data

How the results depend on the processing

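Most changes came with fewer libraries or another scaling, and beyond those constructions the cause was not tested. The fit with the L number as a fixed term has nearly as many terms as libraries, so it leaves little to measure spread. With the L number as a fixed term, mir-251 lost its calls at 10 against 1 day (1.49), 20 against 1 day (1.85), 20 against 5 days (1.52) and among the 4 ages (adjusted p = 0.220), and mir-252 turned to -0.30 at 5 against 1 day; mir-251, which did not pass there, was 0.33 at 5 against 1 day and 1.16 at 10 against 5 days. With DESeq2, mir-251 at 20 against 5 days was 1.15. For mir-252, 5 against 1 day was -0.015 with upper quartiles, and 10 against 1 day was 0.43 with total counts and 0.39 with a minimum of 50 CPM. Its 10 against 5 days lost the call with RLE (0.38), total counts (0.38), the mir-35 family left out (0.45), no filter (0.40), a minimum of 50 CPM (0.31), DESeq2 (0.38) and the 2 ages alone (0.36). Without a filter its 20 against 10 days passed (0.44). At 10 against 5 days these scalings shifted the median over all hairpins by -0.20 (RLE and total counts), -0.15 (mir-35 family left out) and 0.22 (upper quartiles).

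With each library left out, log2 changes of mir-251 ran from 0.58 to 1.34 (5 against 1 day), 0.20 to 0.79 (10 against 5 days), 0.93 to 1.85 (10 against 1 day), 0.89 to 1.54 (20 against 5 days) and 0.46 to 0.97 (20 against 10 days). Those of mir-252 ran from -0.041 to 0.25 (5 against 1 day), 0.32 to 0.86 (10 against 1 day), 0.17 to 0.73 (10 against 5 days) and 0.11 to 0.73 (20 against 10 days). A library left out of an age of 2 leaves 1, which is assumed to vary like the other ages. The difference of the log2 count ratio at 10 against 5 days (0.016) ran from -0.15 to 0.26, with 4 of 11 turned: -0.064 and -0.15 when the 5-day group lost replicate 1 or 2, and -0.14 and -0.059 when the 10-day group did. mir-251 could not be fitted with a minimum of 50 CPM, nor in the 2 ages alone at 5 or 10 against 1 day. No paired analysis by replicate was possible because the labels give no replicate numbers; the L number, which some libraries of different ages share, was used as a block. Depth limits mir-251, of which a library held 1 to 21 reads, each worth 0.533 to 1.11 CPM.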
